A study of Macaca mulatta with 2 samples.

Results

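Spermatogonial and early germ cell markers were followed in rhesus macaque Sertoli cell cultures of 2 ages. The set held 10 genes, taken by gene symbol from the non-control spots of both scanner files, with every probe of each: DAZL, DDX4, PRAME, UCHL1, ID4, POU5F1, KIT, GFRA1, SALL4 and NANOS1. They had 15 of the 41000 probes, and all 10 were among the 19611 genes tested. Pubertal cultures were primary Sertoli cells from males of 18 to 22 months whose puberty had been driven with GnRH. The hormone was given every 3 h as a pulse of 2 min at 0.15 µg/min, over 4 to 5 weeks. Infant cultures were primary Sertoli cells from males under 3 months old. All 4 cultures, infant ones included, had been exposed to 100 nM testosterone and 5 ng/ml FSH for 24 h. Array 1 carried a pubertal culture in Cy5 and an infant culture in Cy3, and array 2 carried another pair with the dyes exchanged. The labels call the pairs biological replicates and do not say whether testes were pooled. The older cultures thus stand for an induced puberty and not for a spontaneous one. No untreated culture is analysed here.

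Male germ cells begin as gonocytes, which descend from primordial germ cells and become spermatogonia along the wall of the seminiferous tubule. Spermatogonia renew themselves or enter differentiation, guided by factors from the Sertoli cells around them, among them GDNF and KIT ligand. A Sertoli cell culture made from testis tissue can carry germ cells along. In RNA from a whole culture, fewer germ cells and less RNA per germ cell cannot be told apart.

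The array was a human design, so each gene was read by 60-base probes written for the human transcript, and the file headers place it on the human build hg17. The probes below are shown because the values of their genes were read with them. They are given 5′ to 3′ as deposited, whole or as their last 30 bases.
DAZL A_23_P212105, last 30 bases: ggacatgagtttaaagcggctttctggccc
PRAME A_24_P216361, whole: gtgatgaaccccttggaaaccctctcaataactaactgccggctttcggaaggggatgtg
PRAME A_23_P166360, last 30 bases: agaatctgaatttctaaagggagattctgg
ID4 A_23_P59375, last 30 bases: gccaacctagaaacgttttcattcgtcatt
NANOS1 A_24_P383609, last 30 bases: attttattactgaactagcaactagccttt
DDX4 A_23_P256624, whole: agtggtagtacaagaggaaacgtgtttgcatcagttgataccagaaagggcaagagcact
SALL4 A_23_P109072, whole: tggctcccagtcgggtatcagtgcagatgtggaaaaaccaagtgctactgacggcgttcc
POU5F1 A_24_P144601, whole: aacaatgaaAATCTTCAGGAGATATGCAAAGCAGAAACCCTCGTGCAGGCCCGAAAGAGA
POU5F1 A_24_P214841, whole: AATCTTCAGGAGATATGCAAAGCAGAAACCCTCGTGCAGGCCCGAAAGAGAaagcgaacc

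Capitals mark the run of 51 bases that the last 2 probes share, so these are not separate readings of POU5F1. On hg17 the DAZL probe lies at chr3:16603821-16603880 on the minus strand. The bright PRAME probe lies at chr22:21215556-21215615 and the dim one at chr22:21214760-21214819, both on the minus strand. The ID4 probe is at chr6:19947489-19947548 on the plus strand and the NANOS1 probe at chr10:120780857-120780916 on the plus strand. The SALL4 probe is at chr20:49834263-49834322 on the minus strand. The DDX4 probe covers 1099 bases at chr5:55146961-55148059 on the plus strand, more than its own 60, as a probe across a splice junction does. The capitalised POU5F1 probes each cover 344 bases on the minus strand, at chr6:31241004-31241347 and chr6:31240995-31241338. Exon and UTR annotation of hg17 was not used here. How many bases of each probe differ from the macaque transcript was not tested.

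Of the 10 genes, 7 were higher in the pubertal culture on both arrays (DAZL, PRAME, ID4, SALL4, DDX4, GFRA1 and KIT), none was lower on both, and UCHL1, POU5F1 and NANOS1 had opposite signs on the arrays. Among all 19611 genes tested, 23.5% were higher on both arrays and 21.9% lower on both. DAZL and PRAME were at least 2-fold higher on both arrays, 2 of 10, and none was so lower. Among all genes tested 0.342% were at least 2-fold higher on both and 0.352% lower. The 10 genes and the gene lists below were chosen with earlier results of these data known. The shares of all genes are thus given as background and are no test of the set. The median log2 ratio of pubertal over infant over the 10 genes was 0.60 on array 1 and 0.38 on array 2, beside 0.05 and -0.03 over all genes tested. None of the 10 passed limma's test across all genes at an adjusted p under 0.05, and neither did any other gene (0 of 19611, 0%). DAZL, PRAME and ID4, 3 of the 10, had an unadjusted p under 0.05 (0.0032, 0.00206 and 0.0202), all higher in pubertal cultures. Of all genes, 792 had such a p, 2.23% of those tested being higher in pubertal cultures and 1.81% lower. Under median centring, without loess, PRAME kept such a p (0.036), DAZL had 0.0542 and ID4 0.212, and 104 genes had one in all. In that setting NANOS1 was higher on both arrays (0.54 and 1.41), while KIT (-0.099 and 0.26) and GFRA1 (-0.32 and 0.25) had opposite signs. All genes tested then had medians of 0.63 on array 1 and -0.42 on array 2, so these signs are not relative to other genes. An exact two-sided sign-flip test of a single gene with 2 array pairs cannot go below 0.5 and was not used.

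**Figure D1:**
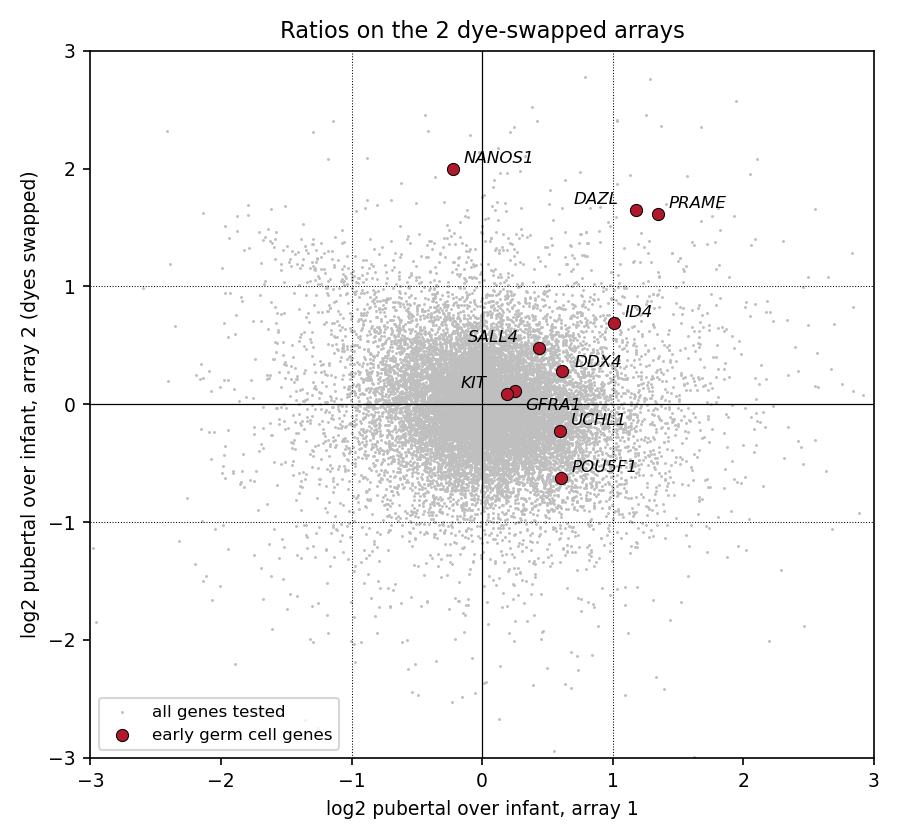
Each dot is a gene, with its log2 ratio of pubertal over infant on array 1 (x axis) and on array 2 (y axis); red dots are the 10 early germ cell genes, grey dots all genes tested, dotted lines mark 2-fold, and 28 genes lie outside the plotted range. DAZL and PRAME are the 2 red dots beyond 2-fold on both arrays, 7 red dots lie above 0 on both axes, and NANOS1 is high on array 2 only.

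Levels are given as normalized intensities, in arbitrary units, after background correction, loess and scaling of the arrays to each other. The background correction adds 50 to every corrected signal, so a level near 50 is little or no signal. Levels of different probes are not compared. A channel counted as above background where the scanner software flagged its spots as well above background. This held for 7 of the 10 genes in all 4 channels. KIT, GFRA1 and SALL4 had infant signal above background on 1 of 2 arrays and passed the filter through the pubertal channels alone. The count was 7 of 10 without any filter as well, beside 22.5% of all genes, and 4 of 7 with all 4 channels above background, beside 22.4%.

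**Figure D2:**
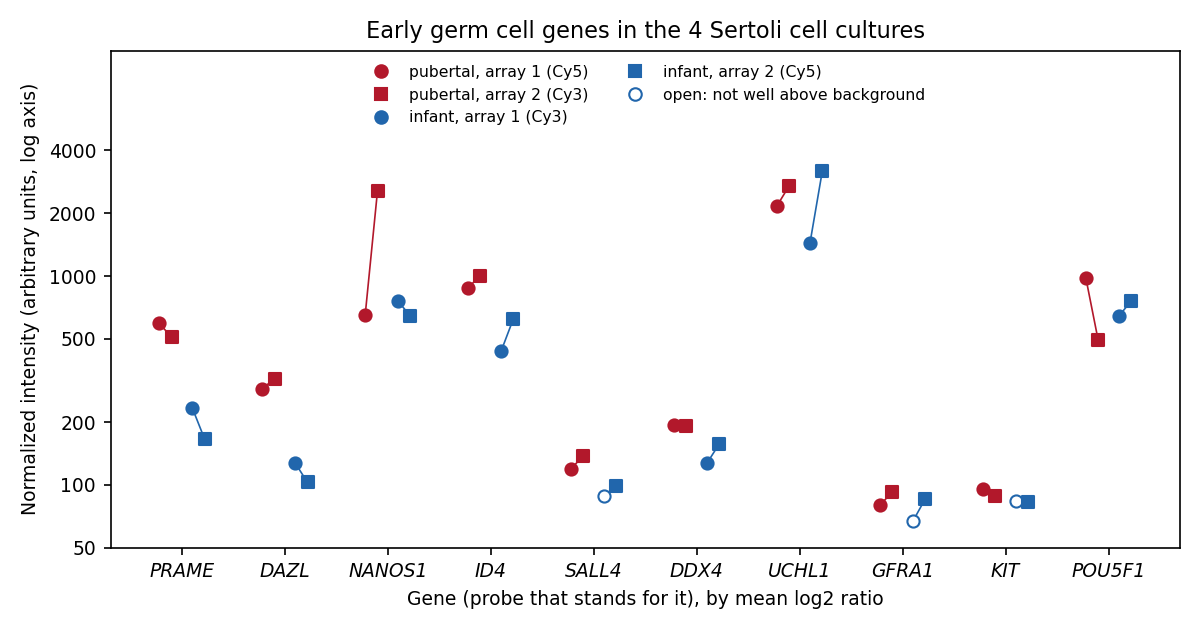
Normalized intensity (arbitrary units, log axis) of the probe that stands for each of the 10 genes in the 4 cultures, pubertal (red) left of infant (blue), circles for array 1 and squares for array 2, open where the signal was not well above background; lines join the 2 cultures of an age. For PRAME, DAZL, ID4, SALL4, DDX4 and KIT both pubertal cultures lie above both infant cultures.

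The RNA-binding proteins of the germ line come first. DAZL, an RNA-binding protein needed for germ cell development, read 289 and 323 in the pubertal cultures of arrays 1 and 2, against 127 and 103 in the infant cultures. The ages did not overlap, and the log2 ratios of 1.18 and 1.65 averaged 1.42 ± 0.26 (n = 2 arrays, SE moderated by limma), or 2.67-fold. Its limma adjusted p was 0.963, and its mean ranked 64 from the highest among 19611 genes. DDX4, the germ cell RNA helicase also called VASA, read 194 and 191 in pubertal cultures, against 127 and 158 in infant cultures. Its ratios of 0.61 and 0.28 (mean 0.45 ± 0.25, adjusted p = 0.99998) were smaller than those of DAZL on both arrays. NANOS1, a translational regulator of the same family as NANOS3, read 650.4 and 2567 in pubertal cultures, against 758 and 643 in infant cultures. One pubertal culture, that of array 2, stood apart from the other 3 cultures. The ratios were thus -0.22 and 2.00, and the mean of 0.89 ± 0.56 (adjusted p = 0.99998) rests on that culture.

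PRAME, a leucine-rich repeat protein known from testis and tumours, read 595 and 509 in pubertal cultures, against 234 and 166 in infant cultures. The ages did not overlap. Its ratios of 1.34 and 1.61 gave the highest mean of the 10 genes, 1.48 ± 0.25 or 2.79-fold, with an adjusted p of 0.963 and a rank of 53 among all genes. A second PRAME probe stayed near the floor in all 4 cultures, at 67.9 and 70.1 in pubertal cultures and 58.3 and 60.9 in infant cultures. It was not well above background in any channel, so it gives no further reading of PRAME. UCHL1, a deubiquitinating enzyme used as a marker of primate spermatogonia and also abundant in neurons, was bright, at 2171 and 2714 in pubertal cultures and 1436 and 3181 in infant cultures. The ages overlapped, and the ratios of 0.60 and -0.23 (mean 0.18 ± 0.30) had opposite signs.

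Among the transcription regulators, ID4 and SALL4 kept 1 direction and POU5F1 did not. ID4, an inhibitor of basic helix-loop-helix factors that marks stem-like spermatogonia in mice, read 881 and 1007 in pubertal cultures, against 437 and 626 in infant cultures. The ages did not overlap, and the ratios were 1.01 and 0.69 (mean 0.85 ± 0.25 or 1.80-fold, unadjusted p = 0.0202, adjusted p = 0.99998). SALL4, a zinc finger factor of undifferentiated spermatogonia, was dim, at 119.6 and 138 in pubertal cultures and 88.3 and 99.3 in infant cultures. Its ratios of 0.44 and 0.48 (mean 0.46 ± 0.24) lay closer together than those of any other of the 10 genes in the main setting. Its infant signal was above background on 1 of 2 arrays, and with offset 0 its ratios were 1.07 and 0.86.

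POU5F1, the pluripotency factor OCT4 of primordial germ cells and gonocytes, had 4 probes. The brightest read 979 and 493 in pubertal cultures, against 644 and 759 in infant cultures, with overlapping ages and ratios of 0.61 and -0.62 (mean -0.0090 ± 0.37). The next read 147 and 128 in pubertal cultures, against 138 and 127 in infant cultures, with ratios of 0.097 and 0.015. The overlapping pair printed above ranged from 63.0 to 72.5 in pubertal cultures and from 67.8 to 77.1 in infant cultures. All 3 of these dimmer probes also list a non-coding RefSeq transcript in the file, and which locus it belongs to was not looked up. The POU5F1 probe with 1 sign on both arrays and signal above background in every channel was the one with ratios near 0.

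The receptors were near the detection limit. KIT, the receptor tyrosine kinase of differentiating spermatogonia, read 95.2 and 88.6 in pubertal cultures, against 83.6 and 83.3 in infant cultures, with ratios of 0.19 and 0.09 (mean 0.14 ± 0.24). Its probe was printed 10 times on each array, which shows the error within an array. On array 1 the 7 spots without outlier flags ran from -0.04 to 0.37 (SD 0.13), and on array 2 the 8 such spots ran from -0.09 to 0.26 (SD 0.13). The pubertal culture was higher at 6 of 7 spots on array 1 and at 6 of 8 on array 2. Over the 199 tested probes with at least 10 spots, the median SD was 0.0876 on array 1 and 0.0825 on array 2. The ratios of DAZL and PRAME are more than 10 times these medians. Their probes were printed as 1 spot each, so their own error within an array was not measured. Error within an array also leaves out the spread between animals. GFRA1, the receptor that binds GDNF on undifferentiated spermatogonia, read 79.8 and 92.8 in pubertal cultures, against 67.1 and 85.8 in infant cultures. Its ratios were 0.25 and 0.11 (mean 0.18 ± 0.24) with overlapping ages, and its other probe, which did not pass the filter, had 0.14 and -0.03. Adjusted p-values of KIT, GFRA1, SALL4, UCHL1 and POU5F1 were all 0.99998.

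**Figure D3:**
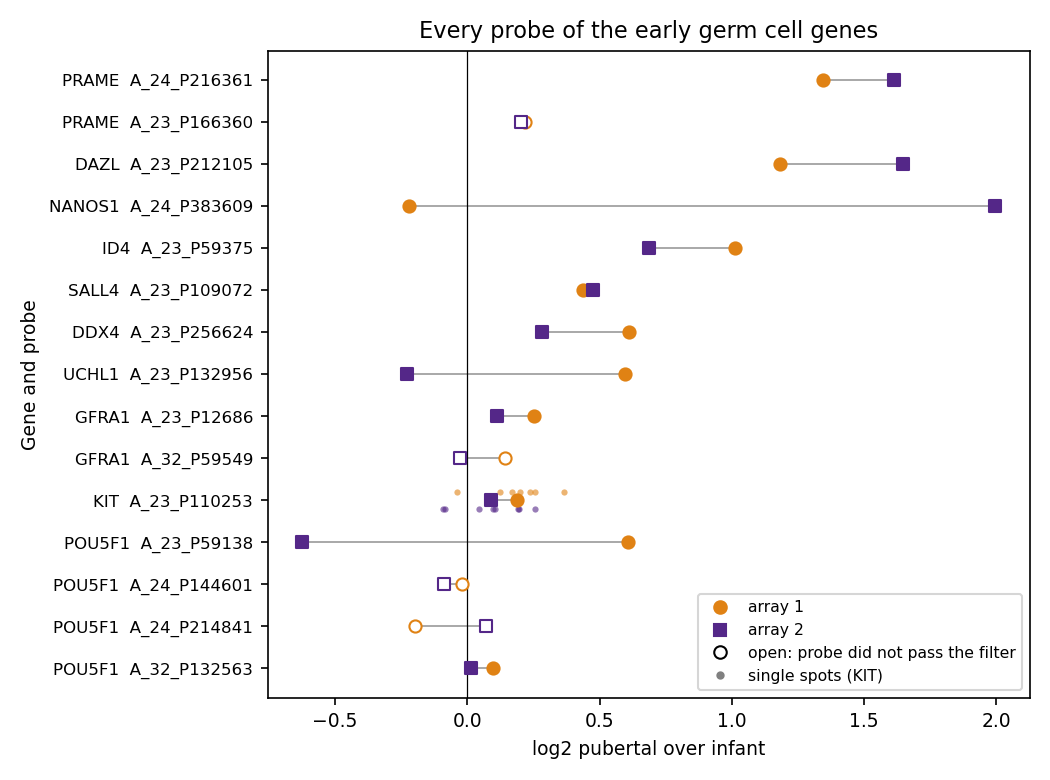
Log2 ratios of pubertal over infant for all 15 probes of the 10 genes, circles for array 1 and squares for array 2, open where the probe did not pass the filter on dim signals; small dots are the single KIT spots without outlier flags. The PRAME, DAZL, ID4 and SALL4 probes that stand for their genes keep both arrays well to the right of 0, and NANOS1 and the brightest POU5F1 probe lie on both sides of it.

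In all, both pubertal levels lay above both infant levels for 6 of the 10 genes, against 15.7% of all genes tested. Of these 6, KIT and SALL4 had passed the filter through the pubertal channels alone, which favours that order. The share among genes above background in every channel was not computed. The dye swap separates age from dye: an age difference changes sign when ratios are read as Cy5 over Cy3, and a dye difference does not. Read that way, UCHL1 and POU5F1 were higher in Cy5 on both arrays and NANOS1 was lower in Cy5 on both. Across all genes 31.5% were higher in Cy5 on both arrays and 23.2% lower. For these 3 genes a dye effect and a difference between the animals of the 2 pairs cannot be told apart. For the other 7 genes age, the GnRH treatment of the pubertal animals and differences between animals cannot be told apart.

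The size of the ratios of dim genes depended on the background correction. With no offset the mean of DAZL was 2.09, that of DDX4 0.71, that of SALL4 0.96, that of GFRA1 0.66 and that of KIT 0.39. With the scanner's own processed signals DAZL stood at 2.27, DDX4 at 0.81, SALL4 at 1.46, GFRA1 at 0.63 and KIT at 0.78, while ID4 (0.95), PRAME (1.89) and NANOS1 (0.92) moved by less than 1.5 times. On that scale SALL4 was at 1.42 and 1.50 on the 2 arrays and joined DAZL and PRAME beyond 2-fold on both. The infant signal of SALL4 on array 1 was not well above background, so its ratio there rests on a dim signal. More genes reached that limit on that scale. Of all 19611 genes tested, 276 were at least 2-fold higher on both arrays, beside 67 in the main setting. The authors' deposited table lists 4848 probes (11.8% of the array), among them those of DAZL, DDX4, PRAME, ID4, SALL4 and NANOS1. Of all 41000 probes, 2.26% have values above 0 for both arrays in the authors' deposited table and 0.371% have values of at least 1 for both. It gives DAZL 1.73 and 2.79, PRAME 1.66 and 2.12, DDX4 1.08 and 0.51, ID4 1.18 and 0.71 and NANOS1 -0.27 and 2.11 in the authors' deposited table's 2 columns. For SALL4 the authors' deposited table holds 1.50 for array 2 and an empty cell for array 1. UCHL1, POU5F1, KIT and GFRA1 are not in the list. Most of the deposited values lie within 0.05 of the scanner's ratios, so they are no separate check on the scanner's signals.

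**Figure D4:**
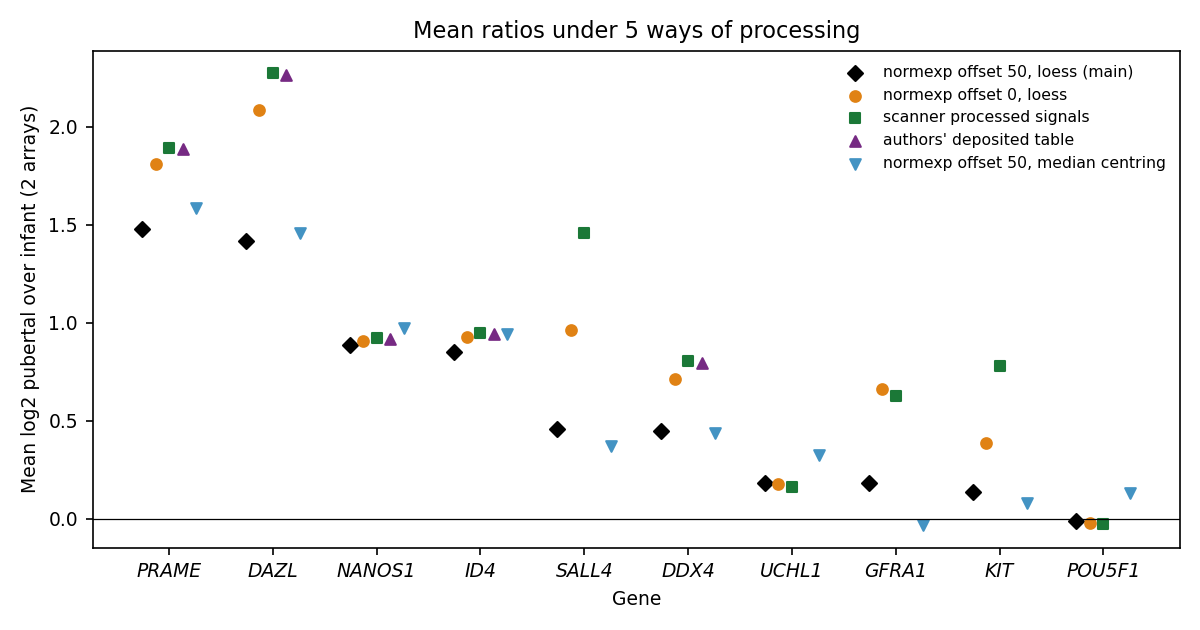
Mean log2 ratio of pubertal over infant over the 2 arrays for each of the 10 genes in 5 sets of values, each shown by its own symbol and colour (no symbol where the authors' deposited table holds no pair of values). The deposited values lie mostly within 0.05 of the scanner's ratios (91.5% and 94.1% on the 2 arrays) and are no separate check on them. DAZL, SALL4, DDX4, GFRA1 and KIT lie higher with offset 0 and with the scanner's signals than with offset 50, and GFRA1 and POU5F1 change sign under median centring.

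Partners and relatives of the 10 genes give context. KITLG, the Sertoli cell ligand of KIT, was bright and read 1135 and 490.5 in pubertal cultures, against 694 and 472 in infant cultures (ratios 0.71 and 0.06), and its other 2 probes had 0.04 and 0.11, and -0.19 and 0.09. GDNF, the ligand of GFRA1, was dim, at 81.8 and 107 in pubertal cultures and 78.5 and 69.3 in infant cultures (0.06 and 0.63). RET, the kinase that signals with GFRA1, was not well above background in any channel, and NCAM1, another GFRA1 partner, was so in 1 infant channel. NRTN, a GDNF relative, had ratios of -0.45 and 0.02.

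Relatives of the 10 genes, many of which somatic cells use too, were mixed in direction. ID1 had ratios of 0.98 and 0.28, ID2 1.65 and -0.45, and ID3 0.29 and -0.39, so of these ID1 shared ID4's sign on both arrays. SALL1 (0.48 and 0.27) and SALL3 (0.45 and 0.46) were dim and higher on both, and SALL2 was at -0.97 and -0.41. UCHL3 (-0.35 and 0.18) and UCHL5 (-0.01 and 0.51) had opposite signs, as did GFRA2 (0.11 and -0.01) and POU2F1 (0.06 and -0.02). GFRA3 had 0.13 and 0.06, NANOS3 0.12 and 0.03, and both probes of BOLL, a DAZL relative of meiosis, were below the background limit in all channels. PDGFRA, a kinase related to KIT and a stromal marker, stood at -1.85 and -0.66, and its other kept probe at -0.10 and -0.35. Relatives tested numbered 13, with medians of 0.12 and 0.03. On both arrays 5 were higher and 2 lower, beside 23.5% and 21.9% of all genes tested.

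Other early germ cell genes went in both directions, more of them higher than lower in the pubertal culture. Among all genes tested 23.5% were higher on both arrays and 21.9% lower. Of 36 listed, 30 matched a symbol on the array and 22 passed the filter, and of these 12 were higher on both arrays, 3 lower and 7 opposite, with medians of 0.32 and 0.12. Without the filter it was 16 higher, 3 lower and 11 opposite of 30, beside 22.5% higher and 21.5% lower among all genes. FGFR3, a receptor of spermatogonia, had 1.27 and 0.92 (a further probe 0.29 and 0.26). PIWIL4, a piRNA-binding protein of spermatogonia, had 0.90 and 1.67, EGR4, a transcription factor of spermatogonia, 2.02 and 0.87, and SOHLH1, a factor of early differentiation, 0.76 and 0.84. SOHLH1 had infant signal above background on 1 of 2 arrays and passed the filter through the pubertal channels alone. ZBTB16, the factor PLZF of undifferentiated spermatogonia, was at 0.29 and 0.16. The 3 lower on both arrays were GPR125 (-0.14 and -0.57), NEUROG3 (-0.28 and -0.02) and SOHLH2 (-0.01 and -0.20).

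Genes of the whole germ line and of later germ cells were set beside the early ones. Of 7 tested pan-germ and piRNA genes 6 were higher on both arrays and none lower, with medians of 0.45 and 0.49. STK31 had 2.06 and 1.35 (a second probe was not above background in any channel), MAEL 1.16 and 0.50, TDRD9 0.72 and 0.49 and RNF17 0.38 and 0.50. Of 11 tested meiotic genes 10 were higher on both and none lower, with medians of 0.62 and 0.47. The share of all genes tested that were higher on both was 23.5%. SPATA22, a gene of meiotic recombination, had the largest ratios, 2.11 and 2.08. The cohesin gene SMC1B had 0.94 and 0.72, and the synaptonemal complex genes SYCP3 and SYCP1 had 1.31 and 0.47 and 0.62 and 0.54. Of 14 spermatid genes 6 passed the filter, 2 of them higher and 1 lower on both arrays, with medians of 0.13 and -0.05. They included AKAP4 (0.52 and 0.46), SPACA1 (0.13 and 0.07) and ACR (-0.05 and -0.01). Without the filter, which dim genes can pass through the culture where they are higher, the counts higher on both were 6 of 12 pan-germ, 15 of 20 meiotic and 4 of 14 spermatid genes. The share of all genes was then 22.5%. Medians were then 0.22 and 0.29 for pan-germ, 0.13 and 0.13 for meiotic and 0.06 and -0.0002 for spermatid genes. SMC1B, SYCP3 and RNF17 were among those that passed the filter through the pubertal channels alone. None of these genes passed limma's test across all genes.

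**Figure D5:**
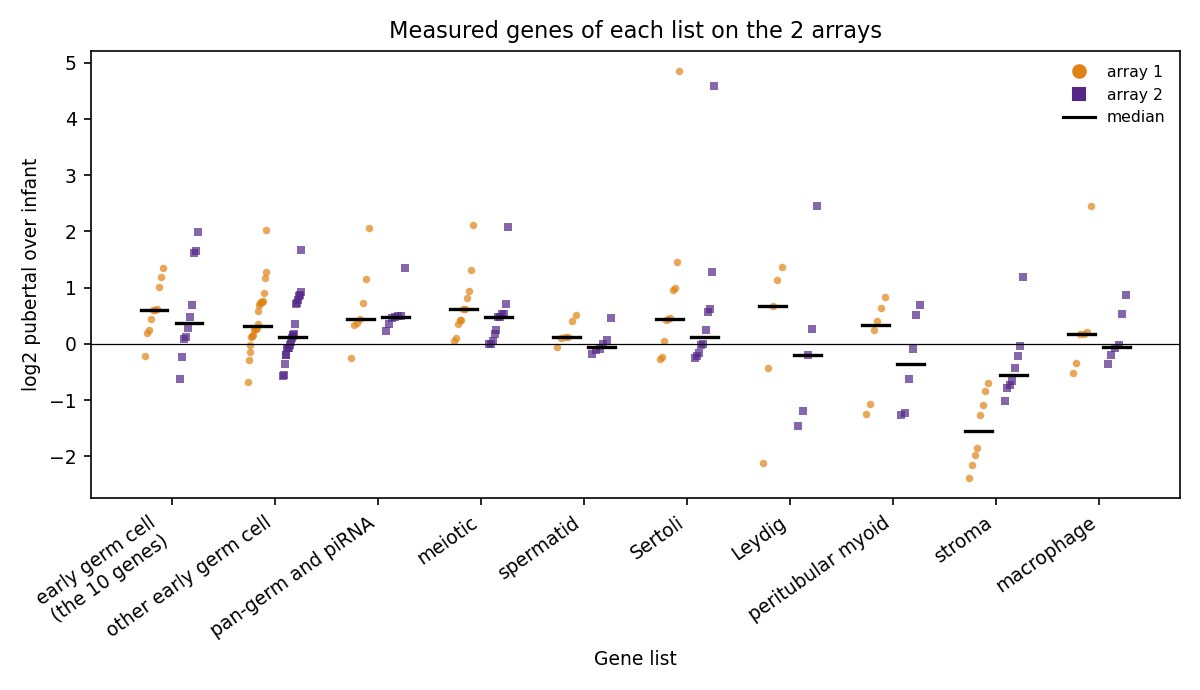
Log2 ratios of pubertal over infant of every tested gene of each list, circles for array 1 and squares for array 2, with black bars at the medians. The early germ cell, pan-germ, meiotic and Sertoli lists have both medians above 0, the stroma list has both below 0, and the spermatid list lies at 0.13 and -0.05.

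Markers of other cells moved on the same arrays. Among all genes tested 23.5% were higher in the pubertal culture on both arrays and 21.9% lower. Of 8 stromal markers 7 were lower in the pubertal culture on both arrays and none higher, with LUM opposite (-2.39 and 1.19). Their summed intensity was 25431 and 38271 in pubertal cultures, against 62695 and 55042 in infant cultures, and all 8 were above background in all channels. Of 10 Sertoli cell markers 5 were higher and 1 lower on both, with sums of 83506 and 57216 in pubertal cultures and 48252 and 57695 in infant cultures. The Sertoli markers WT1, SOX9, GATA4, AMH, INHA and TF were above background in all 4 cultures, and FSHR in 1 of 2 pubertal cultures and in both infant cultures. INHA and TF, and among Leydig markers STAR, CYP11A1 and HSD3B2, were saturated in at least 1 channel, where their level is only a lower bound. The Sertoli sums include INHA and TF, the 2 brightest of the Sertoli markers in every culture, and share that limit. For KIT, which mast cells and Leydig cells also carry, 1 of 4 mast cell markers on the array (HDC) passed the filter and the Leydig receptor LHCGR was below the background limit in every channel. Of the 5 tested Leydig markers 1 was higher and 1 lower on both arrays. The lower one, CYP17A1, a steroidogenic enzyme and not saturated, had -2.12 and -1.45. The sums of the 5, 98294 and 92699.6 in pubertal cultures and 92247 and 63223 in infant cultures, include the 3 saturated genes. For UCHL1, which neurons carry, the neuronal genes tested were SNAP25 (1.69 and 0.66), STMN2 (0.13 and 0.35) and ELAVL4 (-0.02 and -0.19). SNAP25 read 612 and 353 in pubertal cultures, against 189 and 224 in infant cultures. Of 6 peritubular markers 2 were higher and 2 lower on both arrays, of 6 tested macrophage markers 1 and 1, and of 2 tested endothelial markers 1 and 0. The part of any of these cells in the values of the 10 genes was not tested.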

How the data were processed

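Spots were read by the authors with Feature Extraction 9.5.1.1 (Agilent), as the submitters' processing notes say. Each deposited file gives, per the file headers, an unnormalized mean and a local background intensity for each dye. The deposited log10 ratio of the scanner's processed intensities (Cy5 to Cy3) and its flags come from the same software, per the file headers. The authors' deposited table holds log2 ratios in the pubertal-over-infant direction: 91.5% and 94.1% of its values lie within 0.05 of the scanner's ratios. Its normalization is not given in the sources used here.

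Mean intensities were corrected by normexp (offset 50) and normalized by loess within each array in limma 3.58.1 (R 4.3.3). Control spots had no weight, flagged outlier spots (122 and 108) were left out, and spots of a probe were averaged. A probe was kept (25768 of 41000) if 1 age was well above background on both arrays. The probe with the highest mean intensity stood for a gene. Ratios were turned to pubertal over infant and tested with lmFit and eBayes (two-sided, Benjamini-Hochberg), with 1 residual and 3.82 prior degrees of freedom, in code tested on simulated data. Intensities per culture came from Aquantile scaling. Of the spots, 74.8% and 62.6% were well above background for pubertal RNA and 60.9% and 71.5% for infant RNA, with Cy5 the higher dye each time. Across genes the arrays' ratios had a Pearson r of -0.07.

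All 10 members are named with every probe, partners and relatives in full, and of the other germ cell lists up to 4 genes of the smallest p with 1 sign on both arrays, plus ZBTB16, FGFR3 and SYCP3. The 3 other early germ cell genes lower on both arrays are named too. Members and lists were chosen with earlier results of these data known. Alternatives were other offsets, the scanner's signals, median centring, other filters, single probes, an intensity trend and 1 array alone. Part of the marker results is not reported here.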

Additional observations from a re-analysis of the deposited data

How the results depend on the processing

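The test of within-array ratios is itself paired. No paired analysis was possible beyond it because a replicate block would use up the 1 residual degree of freedom, and both arrays lie on 1 slide, which leaves no slide block. None of the 10 genes passed at an adjusted p under 0.05 in any alternative. Adjusted p-values ranged from 0.218 (intensity trend) upward for DAZL and from 0.293 (offset 0) upward for PRAME, whose means over both arrays ran from 1.42 to 2.27 and from 1.48 to 1.89. The calls over all genes were 1 (CST9L, named after its value was seen) with offset 0, median centring or the intensity trend. Median centring turned the means of POU5F1 to 0.13 and of GFRA1 to -0.033. It left all genes at medians of 0.63 and -0.42. With 1 array alone UCHL1 was at 0.60 or -0.23, POU5F1 at 0.61 or -0.62 and NANOS1 at -0.22 or 2.00. The other 7 genes had 1 sign on both arrays, so leaving out an array could not change it and is no further test. The count of the 10 genes higher on both arrays was 4 with all channels above background, where 7 genes were left to test, and 6 with median centring, where NANOS1 joined and KIT and GFRA1 dropped out. Unadjusted p-values under 0.05 were lost there for DAZL (0.0542) and ID4 (0.212). Genes at least 2-fold higher on both arrays numbered 164 and lower 130 with offset 0, 276 and 218 with the scanner's signals, and lower 23 with median centring, beside 67 and 69. Genes of 1 sign on both arrays, 4601 higher and 4294 lower, were 2119 and 1913 with median centring and 7055 and 6737 with no filter, where more genes were tested. The cause of the other shifts was not tested. Dim signal limits KIT, GFRA1, SALL4 and 4 further probes.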
